A study of Caenorhabditis elegans with 9 samples.

Results

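Adult intestines of Caenorhabditis elegans were profiled at 3 heme doses, and every gene was followed along the dose series to see how its transcript level moved from low to high heme. All 9 libraries entered, 3 at each of 2, 20 and 400 µM heme, which are the whole series. Of 21776 genes in the count table, 13434 passed a filter on low counts and were fitted. The worms were of the wild-type laboratory strain N2, held in mCeHR2 liquid medium at 20 °C and given heme from the first larval stage over 1 generation of 4 days. The dose was the sole labelled difference between groups. A library held the pooled intestines of 3 adults, reverse transcribed and amplified by PCR. No label states if replicate libraries were raised in cultures of their own. The p-values therefore cover the spread between libraries alone, which may be technical. In such bulk samples fewer cells of a type and less RNA per cell cannot be told apart.

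Worms of this species do not make heme and take it up from food through the intestine. Transporters of the HRG family bring heme across the gut membrane and out of lysosome-related organelles, an ABC transporter passes it on to the body, and a secreted chaperone carries it to the embryos. Many of these genes are known to be raised when heme is scarce. Cytochrome P450 enzymes carry heme at their active site, and glutathione transferases include proteins that bind heme.

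The first dose step, from 2 to 20 µM, spans a 10-fold rise in heme and the second, from 20 to 400 µM, a 20-fold rise. Slopes are in log2 units per 10-fold more heme and were tested with edgeR's quasi-likelihood test with Benjamini-Hochberg adjustment over all 13434 genes. For each gene, the share of its log2 change from 2 to 400 µM that lay on the first step was computed from a fit with 1 coefficient per dose. An equal change per 10-fold heme puts 43.5% on the first step. Genes with 25 to 75% there were classed as both steps, those above 75 and up to 150% as first step only, those below 25 and down to −50% as second step only, and the rest as turning. Both steps share the 20 µM libraries, so an odd value there moves both in opposite directions. CPM are counts scaled to library size after TMM normalisation, listed for replicates 1 to 3 of each dose. They are compared within a gene and not between genes, since they are not corrected for length.

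The libraries held 44385011 to 72960600 counts, and 3 counts correspond to between 0.0369 and 0.0940 CPM in a library. Ribosomal RNA took 3.58 to 14.8% of counts at 2 µM, 2.31, 35.5 and 42.1% at 20 µM, and 6.45 to 11.5% at 400 µM. In 20 µM replicate 3, 10959 genes had counts, against 13414 to 15863 in the other libraries. Its top 20 genes took 69.2% of counts, against 31.9 to 51.4% in the others. The TMM factors were 0.599, 1.19 and 0.719 at 20 µM and 0.971 to 1.25 at the other doses. The intestinal transcription factor elt-2 had 12.3 to 66.7 CPM in every library. Levels of ges-1 were 44.3 to 173 CPM, and those of the brush border actin act-5 were 399 to 3277 CPM. In each of these genes, all 400 µM libraries lay below all 2 µM libraries. Of 18 intestine identity markers tested, 10 fell and 2 rose without overlap between 2 and 400 µM, against 14.4 and 14.1% of all genes. By the edgeR slope test 0 were called, with 2 falling and 0 rising at an unadjusted p under 0.05. The part of gut content in the falling genes described below was not tested. The body wall muscle myosin unc-54 had 8.70 to 166 CPM and the pharyngeal myosin myo-2 had 0.246 to 156 CPM. Libraries stood apart within doses. At 2 µM, replicates 2 and 3 were near-identical (Pearson r = 0.976 of log2 CPM across genes, against 0.740 to 0.913 for other pairs of a dose), although they still differed by more than counting noise. Cuticle collagens and hypodermis markers took 7.92% of counts in 2 µM replicate 1 and 0.0960 to 0.0981% in the other two. The vitellogenins took 0.0969% in 20 µM replicate 2 and 1.84% in 2 µM replicate 1, against 7.60 to 19.8% in the other 7 libraries. The median SD of log2 CPM was 0.583 at 2 µM, 1.21 at 20 µM and 0.544 at 400 µM, and 65.6% of genes had their largest SD at 20 µM.

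More heme went with lower transcript levels in every gene whose slope passed the test. The slope was negative in 10 genes, 0.0744% of those tested, and positive in 0. At an unadjusted p under 0.05 there were 631 falling genes, 4.7%, and 513 rising genes, 3.82%, or 8.52% in all. The Wald test of DESeq2 with the same covariate called 168 falling and 129 rising genes. The 10 were hrg-4 and hrg-7 of heme transport and signalling, the glutathione transferase gsto-1, the cytochromes P450 cyp-33C9 and cyp-14A4, the metal-responsive cdr-4, the acetylcholine receptor subunit acr-19, and R193.2, ZK154.1 and F07C4.10, which have no common name in the table. All 10 kept the negative sign under every alternative in which they were tested. Their calls rest on few libraries: 0 genes passed when 2 µM replicate 2 or 3, or any one of the 400 µM replicates, was left out, with 811 to 1079 genes at an unadjusted p under 0.05. Without 2 µM replicate 1, 4 genes passed, and without 20 µM replicate 3, 24 genes.

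Among heme importers, hrg-4, which brings heme across the apical gut membrane, was lower at each higher dose. It stood at 79.7, 187 and 188 CPM at 2 µM, 30.9, 7.85 and 17.7 CPM at 20 µM, and 3.21, 1.59 and 0.875 CPM at 400 µM. The lowest 2 µM library lay above the highest 20 µM library, and the same held between 20 and 400 µM. Its slope was −2.74 (SE 0.32, edgeR adjusted p = 0.0216), with a log2 change per 10-fold heme of −3.01 on the first step and −2.55 on the second. Tested alone, neither step passed (edgeR adjusted p = 0.127 and 0.0725). The share on the first step was 47.6%, and between 41.8 and 56.6% when 1 of the 20 µM libraries was left out. On WBcel235 the gene lies on chromosome IV at 11030143 to 11030993 between hrg-5 and hrg-6, with 714 bases to the former and 1594 to the latter. These neighbours did not pass. Levels of hrg-5 were 2.16, 0.680 and 0.287 CPM at 2 µM, 4.15, 0.645 and 0 CPM at 20 µM, and 0.673, 0.794 and 1.23 CPM at 400 µM, and all 3 doses overlapped. For hrg-6, whose doses also overlapped, they were 1.92, 3.30 and 3.22 CPM at 2 µM, 3.01, 2.37 and 0.783 CPM at 20 µM, and 2.16, 1.41 and 1.40 CPM at 400 µM.

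The secreted aspartic protease homologue hrg-7, which signals heme status from the gut to neurons, also fell. It stood at 5244, 9280.2 and 9244 CPM at 2 µM, 1631, 98.1 and 176 CPM at 20 µM, and 31.3, 23.1 and 31.4 CPM at 400 µM. The doses did not overlap, but replicate 1 at 20 µM stood well above replicates 2 and 3. The slope was −3.52 (SE 0.49, edgeR adjusted p = 0.0493), and the first step took 44.9% of the change. Without 20 µM replicate 1 the share was 72.3%, and without replicate 2 or 3 it was 38.8 or 39.6%. The gene lies on chromosome V at 12742041 to 12744171, where the annotation places another gene, C15C8.7, on the same bases.

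Other heme genes had values on a like course without passing the slope test. The heme exporter of the intestine, mrp-5, stood at 725, 1538 and 1534 CPM at 2 µM, 244, 187 and 566 CPM at 20 µM, and 43.4, 84.7 and 78.2 CPM at 400 µM, with no overlap between doses. Its slope was −1.82 (SE 0.26, edgeR adjusted p = 0.0519), just outside the threshold, with 45.9% on the first step and 38.6 to 61.1% with 1 of the 20 µM libraries left out. The importer hrg-1, found in lysosome-related organelles, stood at 367, 507 and 499 CPM at 2 µM, 116, 4.22 and 11.9 CPM at 20 µM, and 3.73, 2.29 and 1.98 CPM at 400 µM, again with no overlap between doses. In the chaperone hrg-3 the levels were 1654, 1231 and 1128 CPM at 2 µM, 197, 1.74 and 17.7 CPM at 20 µM, and 2.71, 2.45 and 4.16 CPM at 400 µM, and 1 of the 20 µM libraries lay below the 400 µM libraries. The slope was −3.22 for hrg-1 (SE 0.50, edgeR adjusted p = 0.0654) and −3.79 for hrg-3 (SE 0.63, edgeR adjusted p = 0.0756). Their shares of 45.5 and 48.2% rest on 20 µM replicate 1, where both were high, and were 78.6 and 81.3% without it. The slopes of hrg-1 and hrg-3 passed without 20 µM replicate 2, at edgeR adjusted p-values of 0.0411 and 0.0348. Without 20 µM replicate 1 or 3 they did not, at 0.060 and 0.0611 for hrg-1 and 0.105 and 0.0752 for hrg-3. That of mrp-5 passed without 20 µM replicate 3, at 0.0359, but not without replicate 1 or 2, at 0.0638 and 0.0710. In the annotation hrg-1 shares bases with mop-25.1 and hrg-3 with F58E6.11. How reads on such shared bases were counted is not given in the sources used here. In the fit without 20 µM replicate 1 the median log2 change of all genes was −0.40 on the first step and 0.32 on the second, against −0.12 and −0.03 with all libraries.

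**Figure D1:**
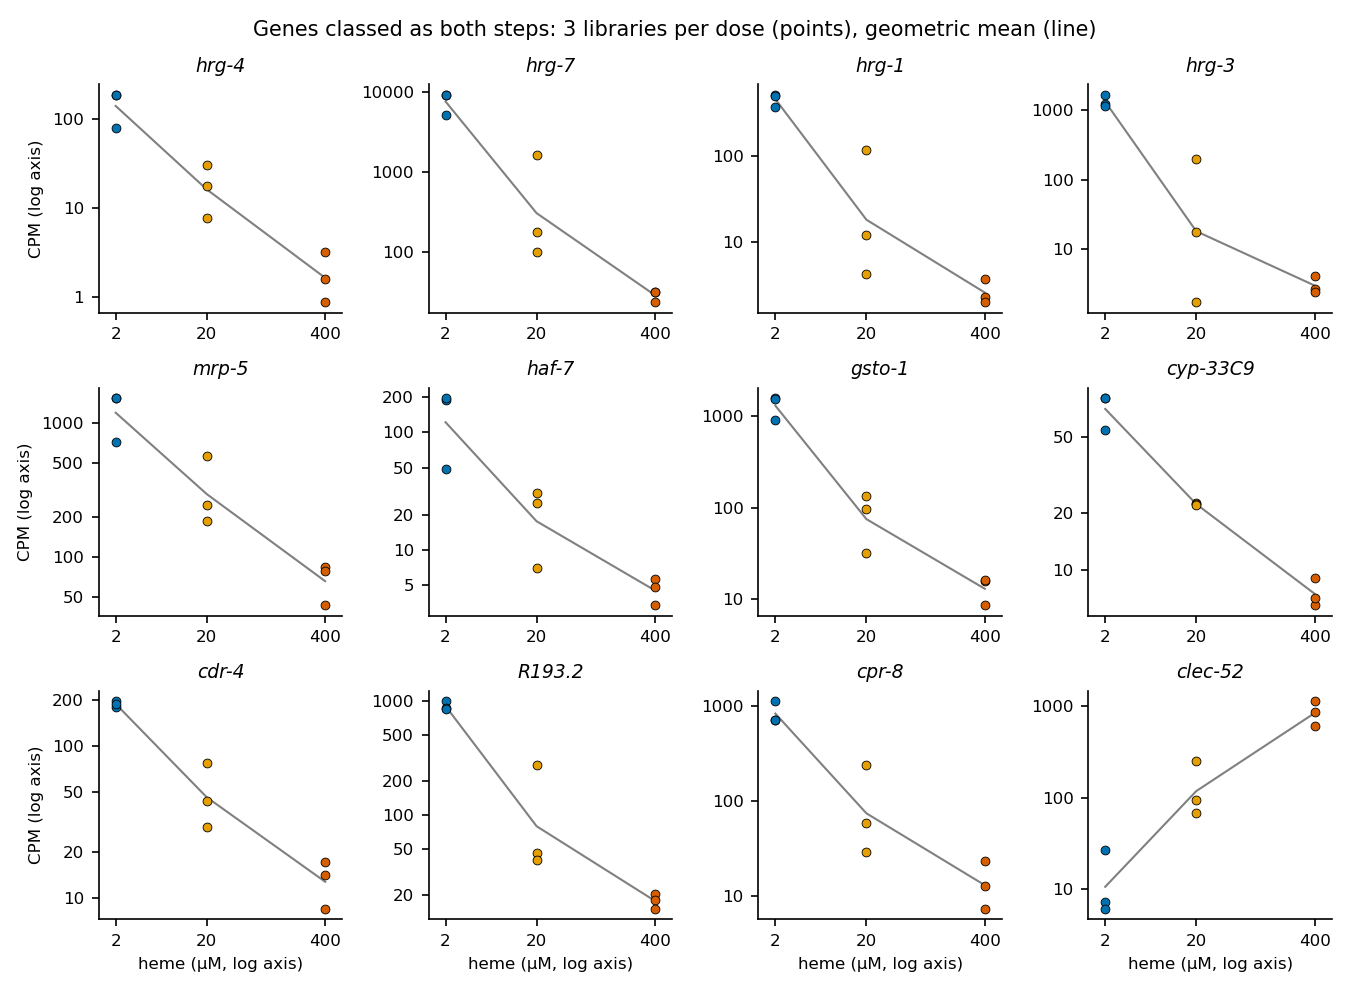
CPM of 12 genes classed as both steps, on log axes, against heme dose, with 1 point per library (3 per dose) and a line through the geometric means. In 11 genes the 400 µM libraries are lowest or, in hrg-3, overlap 20 µM, while clec-52 runs the other way; in hrg-7, hrg-1, hrg-3 and R193.2 one 20 µM library stands far above the other two.

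In another 3 genes of the heme list the class was first step only, and none of their slopes passed. Levels of hrg-2, a heme-binding membrane protein known from the hypodermis, were 2587, 678 and 662 CPM at 2 µM, 2.73, 0.774 and 2.07 CPM at 20 µM, and 1.41, 0 and 1.02 CPM at 400 µM. All 2 µM libraries stood above all others by a wide margin. The first step took 88.8% of the change, and 85.7 to 92.6% with 1 of the 20 µM libraries left out. The slope did not pass (edgeR adjusted p = 0.162), nor did the first step (adjusted p = 0.101). The highest value was in 2 µM replicate 1, the library with 7.92% of counts in collagens and hypodermis markers, and the part of hypodermis in this level was not tested. For R186.1, which is hrg-9 and takes part in moving heme out of stores, the levels were 51.1, 12.8 and 14.7 CPM at 2 µM, 2.42, 0.306 and 0.0627 CPM at 20 µM, and 3.32, 1.03 and 1.31 CPM at 400 µM, lowest in 20 µM replicates 2 and 3. The glutathione transferase gst-19 stood at 146, 145 and 139 CPM at 2 µM, 22.8, 10.04 and 0.251 CPM at 20 µM, and 11.8, 17.5 and 5.08 CPM at 400 µM, with the 20 and 400 µM libraries overlapping. The shares of R186.1 and gst-19 on the first step were 127 and 101.4%. With 1 of the 20 µM libraries left out they were 112.9 to 186.4% and 85.9 to 131.5%. Without 20 µM replicate 1, R186.1 was classed as turning.

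Across the heme transport and trafficking list, 2 of 12 genes fell and 0 rose by the slope test. The median slope was −1.71, against −0.03 over all genes tested. Together its genes took 1.21 to 1.51% of counts at 2 µM, 0.0383 to 0.140% at 20 µM and 0.0146 to 0.0179% at 400 µM, with no overlap between doses. At an unadjusted p under 0.05 there were 8 falling members of 12, against 4.7% of all genes. Of the 8, 5 were of both steps and 3 of the first step only, a split close to the 48.5 and 34.9% of all genes falling at that level. The split depends on 20 µM replicate 1: without it hrg-1 and hrg-3 were of the first step only and R186.1 was turning. Among members with slopes near 0 besides hrg-5 were Y80D3A.9, which is hrg-10, at 1.21, 1.79 and 3.52 CPM at 2 µM, 3.795, 0.741 and 2.32 CPM at 20 µM, and 1.99, 1.95 and 2.69 CPM at 400 µM, and gst-22, at 46.98, 19.8 and 23.1 CPM at 2 µM, 74.96, 10.51 and 20.2 CPM at 20 µM, and 37.7, 13.8 and 8.33 CPM at 400 µM. Neither showed an order of the doses.

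Among enzymes of detoxification, gsto-1, an omega-class glutathione transferase, had a steep slope. It stood at 905, 1560.3 and 1520.3 CPM at 2 µM, 135, 32.004 and 97.8 CPM at 20 µM, and 15.9, 8.59 and 16.36 CPM at 400 µM. The doses did not overlap, and the 2 µM mean was 97.7 times that at 400 µM. The slope was −2.84 (SE 0.33, edgeR adjusted p = 0.0216), with a log2 change per 10-fold heme of −3.91 on the first step and −2.07 on the second (difference 1.84, SE 0.93, edgeR adjusted p = 0.339). The gene lies on chromosome III at 7945542 to 7947018 and shares bases with kle-2 in the annotation. In the glutathione transferase list 1 of 39 tested genes fell and 0 rose, with a median slope of −0.43. The list median was 0.11 on the first step and −1.16 on the second, against −0.12 and −0.03 over all genes. By class, 7 of the 39 were of both steps, 3 of the first step only, 10 of the second step only and 19 turning. Of the 8 falling at an unadjusted p under 0.05, 6 were of both steps by the fit, against 48.5% of all falling genes, although gst-18 and gsto-2 among them were at 0 in every 400 µM library. The first-step gst-17 was at 0 at both higher doses. Levels of gst-17 were 1.54, 16.04 and 14.3 CPM at 2 µM, 0 CPM in all 3 libraries at 20 µM, and 0 CPM in all 3 libraries at 400 µM, at least 745.5-fold higher at 2 than at 400 µM against a floor of 3 counts over the dose. In the annotation gst-17 and gst-18 overlap in part, and how reads on the shared bases were counted is not given in the sources used here.

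The cytochrome P450 cyp-33C9 fell on both steps with little spread at 20 µM. It stood at 54.3, 79.7 and 80.04 CPM at 2 µM, 22.5, 22.1 and 21.96 CPM at 20 µM, and 9.10, 6.50 and 7.09 CPM at 400 µM. The 3 libraries at 20 µM lay within 1 CPM of each other and clear of both other doses. The slope was −1.40 (SE 0.16, edgeR adjusted p = 0.0216), and 52.04% of the change lay on the first step, with 51.9 to 52.6% when 1 of the 20 µM libraries was left out. Neither step passed when tested alone (edgeR adjusted p = 0.109 and 0.0776). It lies on chromosome V at 3091812 to 3094561. The other called P450, cyp-14A4 on chromosome X at 13282043 to 13284197, stood at 42.8, 38.9 and 34.6 CPM at 2 µM, 0.102, 0.709 and 0 CPM at 20 µM, and 0 CPM in all 3 libraries at 400 µM. Its level was at least 2723-fold higher at 2 than at 400 µM, against a floor of 3 counts over the dose, and the edgeR adjusted p of its slope was 0.0216. Since it was at 0 at 400 µM, the fit cannot place its second step. On the scale of log2(CPM + 1), 94.3% of its change lay on the first step. Of 57 tested P450 genes, 2 fell and 0 rose, with a median slope of −0.45. For cyp-35A2, which did not pass (edgeR adjusted p = 0.112), the levels were 468, 349 and 329 CPM at 2 µM, 277, 229.7 and 53.96 CPM at 20 µM, and 38.4, 39.6 and 43.2 CPM at 400 µM, and the first step took 31.9%. How reads that match several members of such families were counted is not given in the sources used here.

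Glucuronosyltransferases, which attach sugar acids to small molecules, had 0 of 54 members called in either direction by edgeR, with 17 falling and 1 rising at an unadjusted p under 0.05, against 4.7 and 3.82% of all genes. Of the 17, 8 were of both steps, 7 of the first step only and 2 of the second step only, near the 48.5, 34.9 and 15.2% of all falling genes. Levels of ugt-21 were 218, 115 and 114 CPM at 2 µM, 32.7, 29.4 and 4.07 CPM at 20 µM, and 6.06, 3.27 and 5.796 CPM at 400 µM, with 1 of the 20 µM libraries inside the 400 µM range. Nuclear hormone receptors, a large family of transcription factors, had 0 of 176 called by edgeR, with 20 falling and 0 rising at an unadjusted p under 0.05, against 4.7 and 3.82% of all genes, and a median slope of −0.26. The median of these receptors was 0.0004 on the first step and −0.56 on the second. The receptor nhr-142 stood at 13.1, 15.96 and 16.6 CPM at 2 µM, 3.82, 2.38 and 5.08 CPM at 20 µM, and 1.37, 1.26 and 2.70 CPM at 400 µM, with 65.2% of its change on the first step.

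Of iron and metal handling, cdr-4 fell on both steps and was the 1 member of 17 that passed, with 0 rising. It stood at 182, 197 and 190.3 CPM at 2 µM, 77.1, 43.3 and 29.4 CPM at 20 µM, and 17.4, 8.54 and 14.2 CPM at 400 µM. No library of a dose reached the range of the next. The slope was −1.65 (SE 0.21, edgeR adjusted p = 0.0365), with 50.3% of the change on the first step. Neither step passed when tested alone (edgeR adjusted p = 0.144 and 0.110). The gene lies on chromosome V at 12407366 to 12408625, and 789 bases separate it from hrg-2, which stood on the first step only. The related genes cdr-1 and cdr-2 did not pass; cdr-1 stood at 48.6, 36.7 and 37.9 CPM at 2 µM, 61.9, 4.80 and 0.783 CPM at 20 µM, and 3.85, 1.28 and 2.22 CPM at 400 µM. The ferroportin homologue fpn-1.2, an iron exporter, had the opposite direction, at 16.02, 26.5 and 28.6 CPM at 2 µM, 213, 81.5 and 206 CPM at 20 µM, and 172, 149 and 133 CPM at 400 µM, with 105% of its change on the first step and an edgeR adjusted slope p of 0.527.

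The remaining called genes have less described roles. R193.2, on chromosome X at 1132993 to 1148585, stood at 986, 861 and 846 CPM at 2 µM, 271, 46.2 and 40.4 CPM at 20 µM, and 20.2, 18.1 and 15.1 CPM at 400 µM. Its doses did not overlap, and 20 µM replicate 1 was again the high one. The slope was −2.44 (SE 0.34, edgeR adjusted p = 0.0493), with 51.5% on the first step and 77.5% without 20 µM replicate 1. ZK154.1, also on X at 7779577 to 7780607, stood at 70.8, 114 and 114 CPM at 2 µM, 0.153, 1.096 and 0.407 CPM at 20 µM, and 0.0381, 0.0541 and 0.104 CPM at 400 µM. Nearly all of its drop in CPM came on the first step, which passed on its own (log2 change −7.47, SE 0.87, edgeR adjusted p = 0.0368). Its share was 71.1% by the fit and 92.4% on the scale of log2(CPM + 1). The receptor subunit acr-19, on chromosome I at 9031244 to 9036695, stood at 16.8, 32.2 and 30.03 CPM at 2 µM, 0, 0.274 and 0 CPM at 20 µM, and 0 CPM in all 3 libraries at 400 µM, at least 1849-fold higher at 2 than at 400 µM against the floor. F07C4.10, on V at 7638894 to 7639887, stood at 9.85, 10.4 and 9.21 CPM at 2 µM, 0 CPM in all 3 libraries at 20 µM, and 0 CPM in all 3 libraries at 400 µM, at least 689-fold higher at 2 than at 400 µM and at least 436-fold higher than at 20 µM. Its mean fell short of the 10 CPM that the rule for naming genes asks for, and it is named after its values were seen.

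No gene passed in the rising direction, and clec-52, a gene with a C-type lectin domain, came closest. It stood at 26.8, 7.34 and 6.12 CPM at 2 µM, 254, 68.9 and 95.2 CPM at 20 µM, and 1138, 615 and 869 CPM at 400 µM. The doses did not overlap, and the 400 µM mean was 65.2 times that at 2 µM. Its slope was 2.58 (SE 0.38, edgeR adjusted p = 0.0519), with 56.03% on the first step and 43.3 to 61.4% when 1 of the 20 µM libraries was left out. It passed without 20 µM replicate 1, at an edgeR adjusted p of 0.0413, but not without replicate 2 or 3, at 0.0726 and 0.0638. The next smallest p belonged to glh-1, a helicase of germ granules, at 6.23, 8.47 and 6.47 CPM at 2 µM, 11.8, 13.9 and 8.18 CPM at 20 µM, and 35.7, 34.1 and 26.1 CPM at 400 µM, where the 20 µM libraries overlapped those at 2 µM. The third was F07C6.3, which was at 0 in all 2 µM libraries and in 2 of those at 20 µM. Just outside the threshold among falling genes were the cathepsin B-like protease cpr-8, at 1107, 712 and 709 CPM at 2 µM, 239, 58.8 and 29.2 CPM at 20 µM, and 23.7, 12.8 and 7.44 CPM at 400 µM, and the ABC transporter haf-7, at 49.1, 189.6 and 196 CPM at 2 µM, 7.08, 25.04 and 30.6 CPM at 20 µM, and 5.70, 3.37 and 4.83 CPM at 400 µM. Both had an edgeR adjusted p of 0.0519, and neither had overlapping doses. The former passed without 20 µM replicate 3, at an edgeR adjusted p of 0.0295, but not without replicate 1 or 2, at 0.060 and 0.0710. The latter passed without 20 µM replicate 1, at 0.0413, but not without replicate 2 or 3, at 0.076 and 0.0638.

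**Figure D2:**
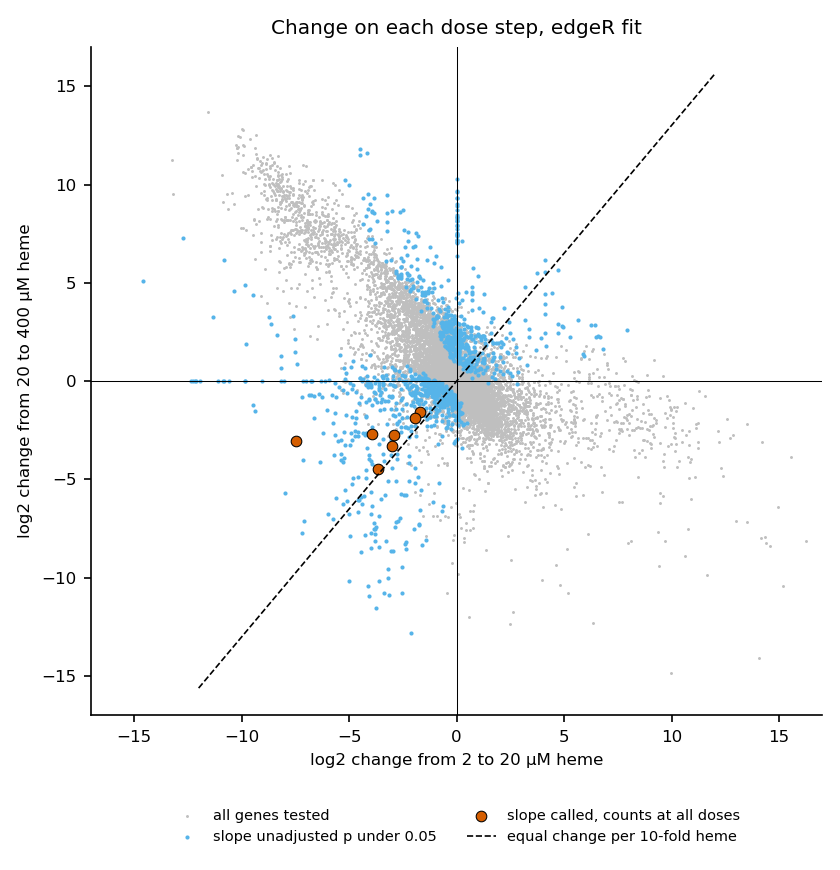
Log2 change of each of 13434 genes from 2 to 20 µM heme (horizontal) and from 20 to 400 µM (vertical), from the fit with 1 coefficient per dose. The dashed line marks an equal change per 10-fold heme; the 7 called genes with counts at all doses lie at the lower left, while most genes lie in the upper left or lower right, where the steps oppose each other.

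Of the 10 called genes, 1 (ZK154.1) passed the test of the first step and 0 passed that of the second. By class, 9 were of both steps and 1, F07C4.10, of the first step only. The slope fit counts a departure from a straight line as spread between libraries, so it passes evenly stepping genes more readily, and this ratio is set in part by the test. With shares from mean log2(CPM + 1), 6 were of both steps and 4 of the first step only, the change lying in genes at or near 0 at 400 µM. Among the 631 genes falling at an unadjusted p under 0.05, 306 were of both steps, 220 of the first step only, 96 of the second step only and 9 turning. Among the 513 rising genes the counts were 133, 18, 290 and 72. Over all 13434 genes the classes held 1800, 1948, 2317 and 7369. Falling genes with a slope thus lay on the first step alone in 34.9% and on the second alone in 15.2%, and rising genes in 3.51 and 56.5%. A linear contrast over the 3 dose coefficients, which does not penalise uneven steps, gave 26.5 and 28.0% of 672 falling genes and 17.9 and 31.4% of 845 rising genes. DESeq2's Wald test gave 24.9 and 31.6% of 582 falling genes and 10.8 and 48.6% of 804 rising genes. The lean of falling genes to the first step was therefore not seen with these fits, while rising genes lay more often on the second step alone than on the first alone in all of them. With limma-voom the falling shares were 32.6 and 25.6% of 2224 genes, and with the replicate number as a block 38.3 and 17.2% of 501. The lean thus depended on the fit.

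**Figure D3:**
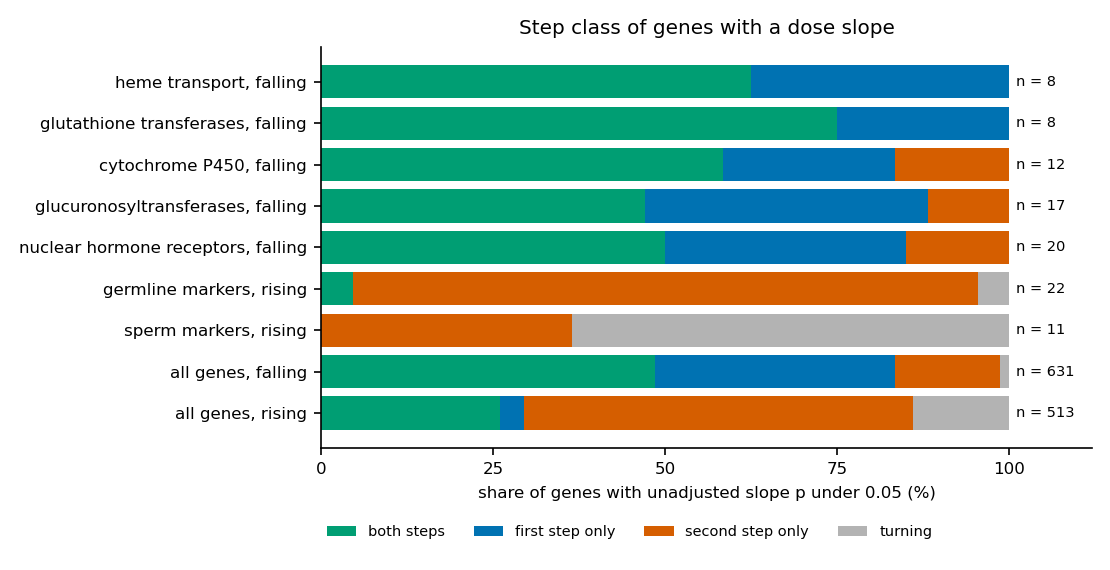
Share of genes in each step class (bars, in percent) among genes with an unadjusted slope p under 0.05, for 7 gene groups and for all genes, with the number of genes at the right. Of 8 falling heme transport genes 5 are of both steps, while 20 of 22 rising germline markers are of the second step only. The classes of hrg-1, hrg-3 and R186.1 change without 20 µM replicate 1.

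Genes that changed on the first step alone were sought by testing that step. From 2 to 20 µM, 10 genes passed, 0.0744% of those tested, with 8 falling, 0.0596%, and 2 rising, 0.0149%. At an unadjusted p under 0.05 there were 1804, 13.4%. Of the 10, 7 were of the first step only, 1 of both steps (ZK154.1) and 2 turning (tbh-1 and W03D8.9, at 0 in every 20 µM library). The genes named in the next sentences were chosen from these after their values were seen. The cysteine synthase-like cysl-2, a known target of the hypoxia factor HIF-1, stood at 68.9, 86.3 and 80.4 CPM at 2 µM, 1.68, 1.47 and 1.504 CPM at 20 µM, and 1.51, 1.95 and 0.835 CPM at 400 µM. It dropped to about 1.5 CPM by 20 µM and stayed there. The first step was −5.66 (SE 0.47, edgeR adjusted p = 0.0113), the second −0.12 (SE 0.39, adjusted p = 0.908), and the first held 98.0% of the change. The share was 97.6 to 99.2% with any one of the 20 µM libraries left out. Per 10-fold heme the 2 steps differed by 5.57 on the log2 scale (SE 0.70), at an edgeR adjusted p of 0.0560. Part of the gene is also annotated as vnut-1.

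Glutamine synthetase gln-1 stood at 92.1, 90.5 and 81.0 CPM at 2 µM, 9.42, 5.61 and 6.42 CPM at 20 µM, and 5.79, 8.79 and 6.34 CPM at 400 µM. The 20 and 400 µM libraries overlapped and lay far below the 2 µM libraries. Its first step was −3.62 (SE 0.40, edgeR adjusted p = 0.0291) and held 99.0% of the change. The glucuronosyltransferase ugt-16 stood at 453, 503 and 481 CPM at 2 µM, 31.1, 16.07 and 8.24 CPM at 20 µM, and 9.53, 12.2 and 15.98 CPM at 400 µM, with a first step of −4.70 (SE 0.59, edgeR adjusted p = 0.0436) and 89.4% of the change. C24D10.5 and F36A2.3, genes without a common name, fell to below 1.5 CPM at 20 µM. Their 400 µM libraries all lay above all 20 µM libraries. The second steps were 2.12 (SE 0.61, edgeR adjusted p = 0.141) and 2.32 (SE 0.78, edgeR adjusted p = 0.181). Without 20 µM replicate 1 their shares on the first step were 156.5 and 155.3%, in the class of turning. C24D10.5 was at 81.8, 62.2 and 62.9 CPM at 2 µM, 0.739, 0.258 and 0.125 CPM at 20 µM, and 1.28, 2.11 and 1.51 CPM at 400 µM, and its first step was −7.52 (SE 0.76, edgeR adjusted p = 0.0265). The genes that rose on the first step were pud-4, at 0.603, 0.666 and 0.135 CPM at 2 µM, 1292, 823 and 87.6 CPM at 20 µM, and 192, 366 and 478 CPM at 400 µM, and F43G6.17, at 0.148, 0.0724 and 0.202 CPM at 2 µM, 5.55, 4.85 and 9.56 CPM at 20 µM, and 2.76, 4.31 and 3.81 CPM at 400 µM. In both, the 400 µM libraries stayed above all 2 µM libraries. Those of F43G6.17 lay below all its 20 µM libraries, with a second step of −0.87 (SE 0.54, edgeR adjusted p = 0.423).

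The aspartic protease asp-8 and the lectin gene clec-47 had the same course of values without passing, at 87 and 111% on the first step. Levels of asp-8 were 2006, 1638 and 1662 CPM at 2 µM, 381, 205 and 286 CPM at 20 µM, and 226, 157 and 283 CPM at 400 µM. In the list of HIF-1 and hydrogen sulfide genes, 0 of 15 passed the slope test, with 5 falling at an unadjusted p under 0.05, against 4.7% of all genes. Of these 5, 4 were of the first step only, against 34.9% of all falling genes. With 1 library left out the number of genes called on the first step ran from 0 to 210. It was 210 without 20 µM replicate 1, and 0 without 20 µM replicate 2 or without 2 µM replicate 2 or 3.

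**Figure D4:**
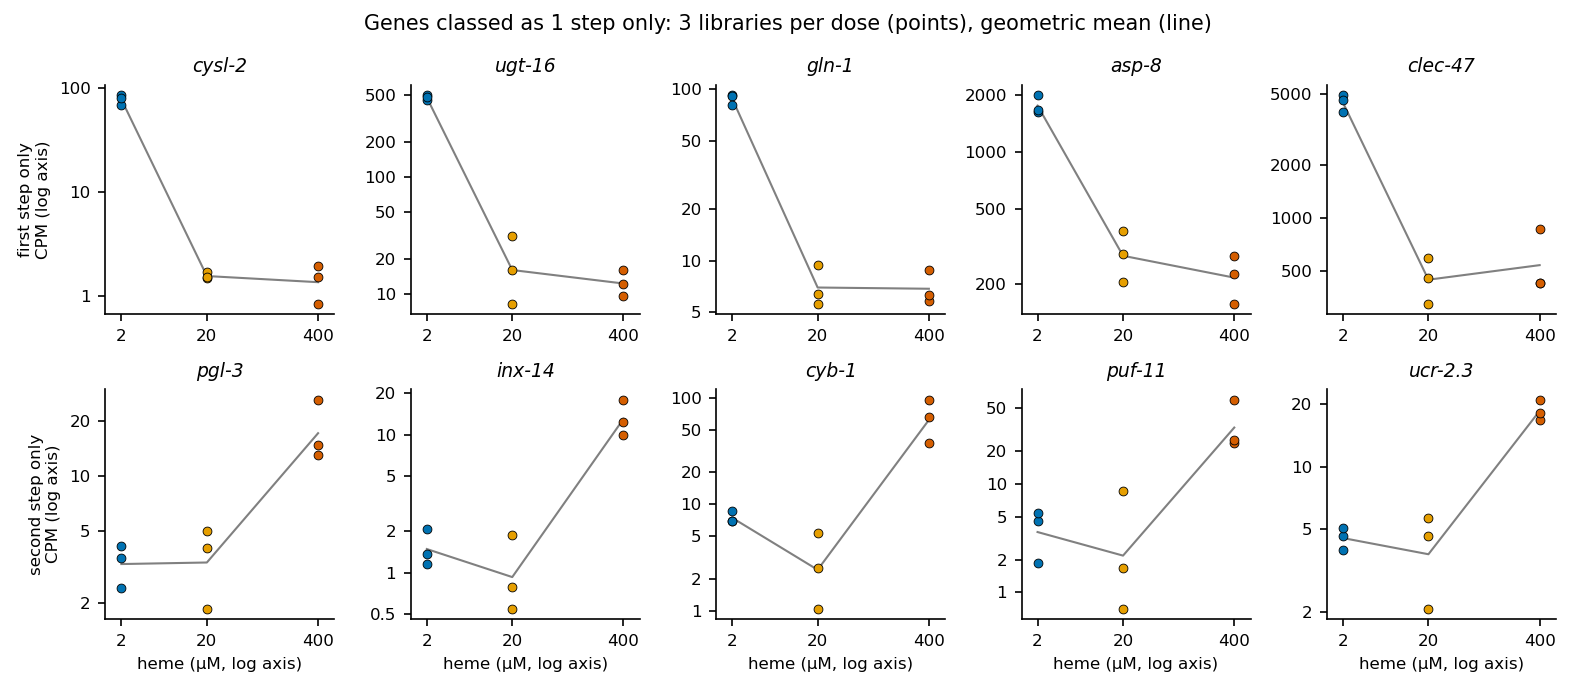
CPM of 10 genes on log axes against heme dose, with 1 point per library and a line through the geometric means; the upper 5 are of the first step only and the lower 5 of the second step only. In the upper row the 20 and 400 µM points share a level below all 2 µM points, and in the lower row the 400 µM points lie above all others.

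From 20 to 400 µM, 74 genes passed, 0.551% of those tested, with 73 rising, 0.543%, and 1 falling, 0.00744%. At an unadjusted p under 0.05 there were 2486, 18.5%. Most did not step in one direction over the doses: 72 of the 74 were turning, with a level at 20 µM below that at 2 µM, or above it in the 1 falling gene. Only cyb-1, a cyclin B, and inx-14, a gap junction gene of the germline, were of the second step only, and both are named after their values were seen. Levels of cyb-1 were 6.92, 7.005 and 8.58 CPM at 2 µM, 5.37, 1.05 and 2.54 CPM at 20 µM, and 95.8, 37.9 and 65.3 CPM at 400 µM, and those of inx-14 were 2.08, 1.36 and 1.15 CPM at 2 µM, 1.86, 0.548 and 0.783 CPM at 20 µM, and 12.4, 17.8 and 9.87 CPM at 400 µM. Their second steps were 4.47 (SE 0.68, edgeR adjusted p = 0.0355) and 3.65 (SE 0.61, edgeR adjusted p = 0.0417). Of the 72 genes called on this step alone, 23 had 0 counts in every 20 µM library. The sperm and germline lists, which hold 79 and 35 of the 13434 genes tested, held 13 of the 72. These lists are of chosen markers, and other genes of these tissues among the 72 were not counted. The number of calls was 953 without 20 µM replicate 1 and 135 without 400 µM replicate 2. It was 0 or 1 with any one of the other 7 libraries left out.

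Germline markers had higher values at 400 µM than at both lower doses. Of 35 tested, 0 passed the slope test in edgeR, 22 had a positive and 0 a negative slope at an unadjusted p under 0.05, against 3.82 and 4.7% of all genes. Of the 22, 20 were of the second step only, against 56.5% of all rising genes. The median of the list was −0.25 on the first step and 2.53 on the second. The P granule gene pgl-3 stood at 2.43, 3.55 and 4.11 CPM at 2 µM, 4.97, 1.87 and 4.04 CPM at 20 µM, and 14.7, 26.1 and 13.1 CPM at 400 µM, and the RNA-binding puf-11 at 1.88, 4.57 and 5.45 CPM at 2 µM, 8.71, 0.709 and 1.69 CPM at 20 µM, and 23.8, 59.8 and 25.7 CPM at 400 µM. In both the 400 µM libraries lay above all others. Together the germline markers took 0.0267 to 0.0413% of counts at 2 µM, 0.0144 to 0.0263% at 20 µM and 0.139 to 0.364% at 400 µM. Sperm markers took 0.168 to 0.170, 0.0146 to 0.0366 and 0.154 to 1.66% in the same order, and 11 of 79 had a positive slope at an unadjusted p under 0.05, 7 of them turning, against 14.04% of all rising genes. These tissues lie beside the intestine in the body, and how much of them the dissected samples held was not tested.

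The reverse pattern, a level at 20 µM unlike both other doses, was common. Only tbh-1 passed the test of unequal change per 10-fold heme, 0.00744% of genes, with 2391 genes, 17.8%, at an unadjusted p under 0.05. This tyramine beta-hydroxylase gene, which makes octopamine in neurons and the gonad sheath, stood at 2.303, 1.97 and 1.77 CPM at 2 µM, 0 CPM in all 3 libraries at 20 µM, and 19.1, 14.1 and 10.4 CPM at 400 µM. It had 0 counts in all 20 µM libraries, and its 2 µM level was at least 89.4-fold above the floor there. The annotation also places suox-1 and H13N06.7 on its bases. In 4 further genes with the smallest p, nspa-4, W09C3.7, C01G12.3 and W03D8.9, the edgeR adjusted p was 0.0559, and all had their lowest level at 20 µM. Levels of nspa-4 were 4.20, 4.82 and 5.73 CPM at 2 µM, 0.255, 0.403 and 0.313 CPM at 20 µM, and 28.2, 8.12 and 24.4 CPM at 400 µM. The 1 gene that fell on the second step, R07B7.6, had its highest level at 20 µM, at 10.6, 9.09 and 8.25 CPM at 2 µM, 20.99, 25.1 and 28.6 CPM at 20 µM, and 4.85, 3.74 and 6.80 CPM at 400 µM. Sperm markers, 62 of 79 of them turning against 54.9% of all genes, had their lowest shares of counts in the 20 µM libraries. Markers of coelomocytes and gonad sheath took 0.000304 to 0.000865% at 2 µM, at most 0.000378% at 20 µM and 0.00117 to 0.00403% at 400 µM. For these markers the 2 and 20 µM libraries overlapped. The part of these tissues and of sperm in this course was not tested. Without 20 µM replicate 1, 961 genes passed the test of unequal change, and without 400 µM replicate 2 it was 85.

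**Figure D5:**
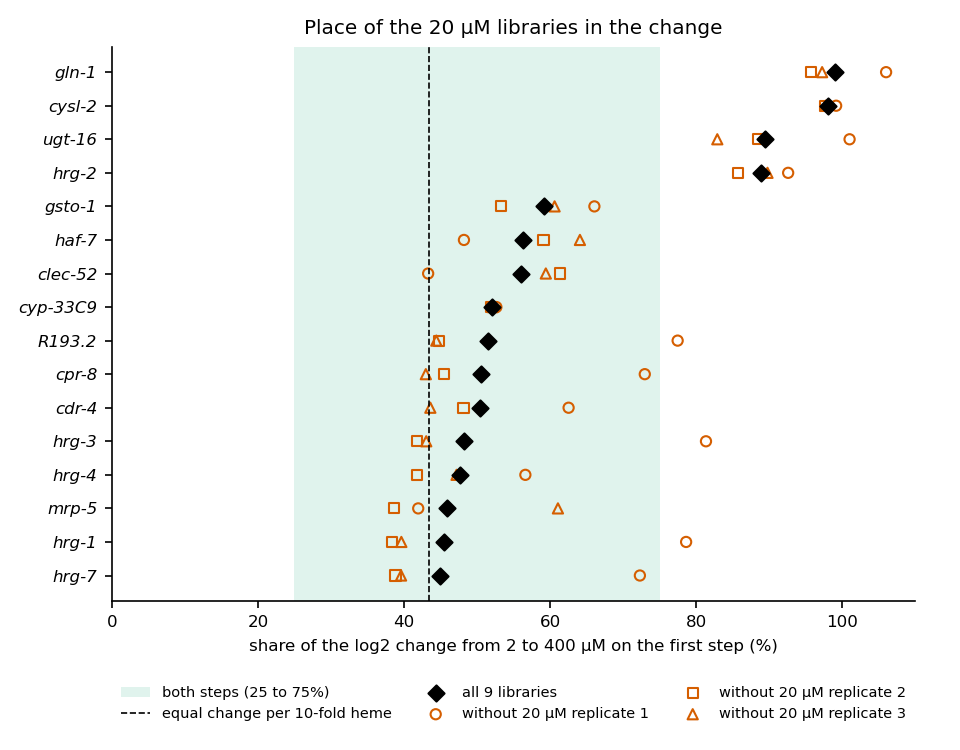
Share of the log2 change from 2 to 400 µM heme that lay on the first step (percent), for 16 genes, with all 9 libraries (filled diamonds) and with each of the 20 µM libraries left out (open symbols); the shaded band is 25 to 75% and the dashed line an equal change per 10-fold heme. The points of cyp-33C9 lie within 51.9 to 52.6%, while those of hrg-1, hrg-3 and R193.2 pass 75% without 20 µM replicate 1.

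A full order of all 9 libraries, every one of a dose beyond every one of the next at both steps, was met by 43 genes, 0.32% of those tested. There were 32 falling, 0.238%, and 11 rising, 0.0819%. A gap between doses on the first step alone was seen in 1147 genes, 8.54%, and on the second alone in 2088, 15.5%. In 1111 genes, 8.27%, both steps had a gap in opposite directions. Between 2 and 400 µM alone the libraries did not overlap in 1930 falling genes, 14.4%, and 1890 rising genes, 14.1%. Of the 43, 42 were of both steps, which the full order makes likely by itself, and 30 of these stayed so with each of the 20 µM libraries left out in turn. Chromosome V held 16 of the 43 and X held 11, against 2649 and 1710 of the genes tested. The number depends on scaling: by total counts in place of TMM, 14 were falling and 12 rising.

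Of the called genes, 7 were in this ordered set, as were mrp-5, hrg-1, haf-7, cpr-8 and clec-52. The rest are named after their values were seen, and none passed the slope test. One was emb-8, the reductase that supplies electrons to cytochromes P450, at 197, 284 and 285 CPM at 2 µM, 103, 98.7 and 85.3 CPM at 20 µM, and 53.2, 72.4 and 66.0 CPM at 400 µM. Its doses stood apart with 70.9% of the change on the first step. The gut granule GTPase gene glo-1 was at 22.04, 28.9 and 29.6 CPM at 2 µM, 8.89, 10.46 and 5.98 CPM at 20 µM, and 4.62, 4.76 and 3.84 CPM at 400 µM, with 64.01% there; it shares bases with R07B1.9. Among transporters, the P-glycoprotein pgp-9 stood at 91.7, 247 and 249.9 CPM at 2 µM, 50.8, 66.4 and 59.3 CPM at 20 µM, and 33.2, 41.9 and 41.8 CPM at 400 µM. The klotho homologue klo-1 stood at 683, 408 and 397 CPM at 2 µM, 171, 63.7 and 57.2 CPM at 20 µM, and 51.1, 36.9 and 43.7 CPM at 400 µM. Both had no overlap between doses and shares of 74.5 and 67.2% on the first step. Among rising genes were dhs-26, a short-chain dehydrogenase, at 18.5, 21.5 and 21.4 CPM at 2 µM, 65.2, 84.2 and 71.5 CPM at 20 µM, and 98.3, 114 and 128 CPM at 400 µM, and cep-1, the worm homologue of p53, at 0.517, 0.535 and 0.725 CPM at 2 µM, 0.968, 1.29 and 2.32 CPM at 20 µM, and 5.30, 6.48 and 4.67 CPM at 400 µM. The catechol methyltransferase-like comt-4, the 1 ordered gene of the first step only, stood at 0.0493, 0.0579 and 0 CPM at 2 µM, 15.6, 3.29 and 9.24 CPM at 20 µM, and 67.2, 84.5 and 21.6 CPM at 400 µM. It was all but absent at 2 µM and highest at 400 µM, with no overlap on either step. Its share of 75.1% lay just past the class limit of 75%. Without 20 µM replicate 1 the share was 69.5%, in the class of both steps.

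In lists of genes that many cells use, counts at an unadjusted p under 0.05 are read against 4.7% falling and 3.82% rising of all genes. In the cytosolic ribosomal protein list 0 of 81 passed, with 1 rising and 0 falling at an unadjusted p under 0.05, and in the respiratory chain 0 of 45, with 3 rising, all on the second step only. Of the vacuolar ATPase, 0 of 22 passed, and 2 had a positive and 0 a negative slope at that level. Most slopes in these lists were negative, in 76 of 81, 40 of 45 and 18 of 22 genes in the order named, against 7056 of all 13434. The median slopes were −0.14, −0.17 and −0.26, against −0.03 over all genes tested. Without overlap between 2 and 400 µM, 2, 6 and 13 members fell and 1, 3 and 3 rose, against 14.4 and 14.1% of all genes. Desaturases and elongases of fatty acids had 0 of 16 called and 0 at an unadjusted p under 0.05. Of the ABC transporters 0 of 48 passed, with 6 falling at an unadjusted p under 0.05, among them mrp-5, haf-7 and pgp-9. Of 25 cathepsins and aspartic proteases 0 passed, with 6 falling and 2 rising at that level.

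Cuticle collagens and hypodermis markers had the most falling genes of the lists described at an unadjusted p under 0.05, 53 of 111, with 1 rising and 0 called by edgeR. These values follow 1 library. Levels of col-38 were 1448, 0.637 and 0.506 CPM at 2 µM, 18.8, 39.8 and 0.909 CPM at 20 µM, and 0.508, 0 and 0.366 CPM at 400 µM. Replicate 1 stood alone at 2 µM. Without that library 1 of 113 tested members had a negative and 25 a positive slope at an unadjusted p under 0.05, and the median slope was −0.70 in place of −2.57. Without it the heme transport list had 7 falling members in place of 8, the glutathione transferases 8 as before and the P450 genes 9 in place of 12.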

How the data were processed

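Raw counts and FPKM values of each gene were deposited by the authors in a single table, per the file headers. The deposited FPKM entered no test. Bowtie 0.12.2 and WBcel235 stand in the submitters' processing notes. The read counter and its use of strand are not given in the sources used here. Counts were scaled by TMM and filtered with filterByExpr. They were fitted with edgeR 4.0.16 (R 4.3.3) by quasi-likelihood, once with log10 heme dose as a covariate and once with 1 coefficient per dose. Genes with an adjusted p under 0.05 were called, two-sided. The biological coefficient of variation was 1.08 in the slope fit and 0.961 in the dose fit, with 2.73 and 2.86 prior degrees of freedom.

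Step classes and the order of libraries are descriptions with no test. Where a dose had 0 counts, folds are lower bounds against 3 counts over the dose, covering counting error only. The script was tested on simulated counts with planted changes. Genes and lists were chosen with earlier results of these data known. The rule for named genes takes the largest falls and rises among called genes with a mean of at least 10 CPM at 1 dose and no overlap between 2 and 400 µM, 3 genes of smallest p where a direction has fewer, the 5 of smallest p for unequal change, up to 5 called genes per step class and direction, all heme genes, and up to 4 members of each other list. Of the table's identifiers, 21714 of 21776 matched the WBcel235 annotation. Alternatives were DESeq2 1.42.0 (Wald test, and its size factors in edgeR), limma-voom (limma 3.58.1), other filters, a replicate block, summed near-identical libraries, ribosomal RNA removed, other slope and share definitions, and each library left out. Leaving out 20 µM replicate 1 with the near-identical libraries summed, and leaving out libraries for the full order, were added after seeing the data. No sequences are printed.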

Additional observations from a re-analysis of the deposited data

How the results depend on the processing

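Counts of called genes depended on the tool and on single libraries. For the slope, falling and rising genes numbered 168 and 129 with DESeq2's Wald test, 1358 and 2025 with limma-voom, 21 and 3 when 3 libraries had to reach 10 CPM, 20 and 1 with dose rank, and 6 and 1 with the linear contrast, which shared 3 genes with the 10. Without a filter 1 gene rose. Summing the near-identical 2 µM libraries left 0, with 1040 genes at an unadjusted p under 0.05, and summing them while omitting 20 µM replicate 1 also left 0. With 1 library left out there were 0 to 23 falling and 0 to 1 rising genes. For unequal change, DESeq2 called 1473, limma-voom 14, no filter 27, the 10 CPM filter 17, and both settings with summed libraries 0; leaving out 1 library gave 0 to 961. For the first step the counts were 926 with DESeq2, 253 with limma-voom, 18 with no filter, 26 with the 10 CPM filter, 0 with summed libraries and 2 with 20 µM replicate 1 also omitted; leaving out 1 library gave 0 to 210. For the second step they were 1654, 0, 147, 42, 0 and 0 in the same order, and 0 to 953. Genes of both steps among the called numbered 22 with the 10 CPM filter, 0 under both settings with summed libraries, and 0 to 22 with 1 library left out. Genes of the first step only numbered 0 with DESeq2 size factors, 3 with no filter, 2 with the 10 CPM filter, 0 under both settings with summed libraries, 2 when both steps meant 40 to 60%, 4 with mean log2(CPM + 1), and 0 to 2 with 1 library left out. The full order was falling in 14 genes by total counts, and in 34 to 98, with 14 to 45 rising, when 1 library was left out; fewer libraries make it easier to meet. The cause of the other differences was not tested.

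With the replicate number as a block, 2 falling genes, both among the 10, and 1 rising passed the slope, 3 of both steps and 0 of the first step only, with 2 called on the first step, 0 on the second and 0 for unequal change. Deviations from the dose means correlated at 0.17 to 0.26 among libraries numbered 1 and among those numbered 3, and at −0.11 to 0.02 among those numbered 2, so the number was not taken to pair them. Of the 9, 6 correlated best with their own number, which is a hint from the data and not the design.

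Slopes of the 35 genes followed singly kept direction and side of the threshold in 528 settings, lost the call in 98, gained it in 58 and turned in 8. The 8 were of genes with slopes near 0. For hrg-5 the slope was 0.42 with limma-voom and 0.34 with the block, and −0.28 to 0.19 with 1 library left out, against −0.13. For Y80D3A.9 (hrg-10) it was −0.047 with limma-voom and −0.082 to 0.24 with 1 library left out, against 0.0081. Depth limits genes at 0 at a dose and those with few counts there, such as comt-4 with 8 counts over the 2 µM libraries, ZK154.1 with 14 over the 400 µM libraries, and R186.1, which was under 3 counts in 20 µM replicate 3.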

Other observations

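Levels of some gut genes differed widely between libraries of 20 µM. The yolk protein gene vit-2 stood at 457 CPM in 20 µM replicate 2, against 164809 and 220596 CPM in replicates 1 and 3. Of the 6 vitellogenins 0 had a slope at an unadjusted p under 0.05, with edgeR calling 0. The lysosomal lipase lipl-1 stood at 75.4, 20.7 and 19.4 CPM at 2 µM, 3049, 55.5 and 774 CPM at 20 µM, and 411, 251 and 261 CPM at 400 µM, highest in 20 µM replicate 1. All its 400 µM libraries lay above all 2 µM libraries, and its slope did not pass (edgeR adjusted p = 0.963). Inducible heat shock genes took 1.52, 0.0832 and 0.0822% of counts at 2 µM, 2.38, 0.0298 and 0.0065% at 20 µM, and 0.0638 to 0.118% at 400 µM. The high value at each lower dose was in replicate 1 alone. Of 13 tested, 1 fell at an unadjusted p under 0.05, against 4.7% of all genes, and edgeR called 0. Pharynx markers took 0.00587 to 0.126% of counts at 20 µM and 0.00117 to 0.0209% at the other doses, and 0 of 13 had a slope at that level.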
